A study of Homo sapiens with 6 samples.

Results

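The genes of sphingosine-1-phosphate (S1P) signalling followed here across control and VprBP-depleted cells were the receptors S1PR1, S1PR2, S1PR3 and S1PR5, the kinases SPHK1 and SPHK2, the lyase SGPL1, the phosphatase SGPP1, the exporter SPNS2 and the ceramide synthase CERS2. They were chosen by gene name from a table of 21494 genes, and all 10 were present in it and passed the filter on low counts. RNA-seq had been carried out on 6 samples labelled as G361, a human melanoma line. The 3 Control sh samples carried a control shRNA and a wild-type genotype label. The 3 VprBP sh samples carried an shRNA against the coding region of VprBP, whose gene is DCAF1, and were labelled as DCAF1 knockdown. The methods describe stable lentiviral expression from pLKO.1 under puromycin selection for this line, with 1 shRNA sequence, and do not state whether the selected cells were a pool or a clone. Nothing in the labels says that the replicates of a group were separate cultures, so the p-values below measure only the spread between these samples, which may be technical.

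S1P is a signalling lipid made from sphingosine, which is itself released from ceramide by ceramidases. Sphingosine kinases phosphorylate sphingosine to S1P, phosphatases return it to sphingosine, and S1P lyase removes it for good by cleavage. S1P that leaves the cell through a transporter acts on a family of G protein-coupled receptors, which are best known for the egress of lymphocytes from lymphoid organs and for the barrier function of endothelium, and which also act on the migration of tumour cells.

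The totals of estimated counts ran from 18195949 to 26883948 per sample, and mitochondrial genes took 1.96% to 1.98% of them in Control sh against 4.10% to 4.48% in VprBP sh. DCAF1 itself had 688, 893 and 884 counts in Control sh against 681, 488 and 628 in VprBP sh, a log2 fold change of -0.58 (standard error 0.17, edgeR adjusted p = 0.0125), and it was not called. Scaled by library size alone it stood at -0.37 (edgeR adjusted p = 0.0851), and with replicates 2 and 3 summed at -0.46 (edgeR adjusted p = 0.0839). It shares 1325 exon bases with RBM15B on the opposite strand, which went from 1551, 1443 and 1470 to 2178, 2994 and 3901 counts. The DCAF1 values are RNA counts, whereas the paper examined the depletion in G361 cells on protein, by Western blot. In both groups, replicate 1 stood apart from replicates 2 and 3, with a chi-square per degree of freedom of 16.1 to 26.6 in pairs with replicate 1 and of 2.32 to 2.45 between replicates 2 and 3. The labels name the line as G361 but give LD611 as the source. Of 7 melanocyte-lineage markers, 3 (TYR, DCT and SOX10) were not among the genes analysed and the other 4 summed to 184 to 210 counts in Control sh against 235 to 367 in VprBP sh, with MLANA at 1 to 5 counts in all 6. Apart from MITF, no lineage marker exceeded 46 counts in any sample, which goes against the melanoma label in both groups. Of 8 urothelial markers, 7 were present and summed to 89351 to 119549 counts in Control sh against 21851 to 36168 in VprBP sh, mostly from KRT5 and KRT7. Of the uroplakins listed, UPK3A was not among the genes analysed and UPK1A had 0 to 5 counts in all samples. UPK1B went from 500, 641 and 709 counts to 0 in every VprBP sh sample, and UPK2 from 176, 203 and 220 to 26, 44 and 73. KRT5, a basal keratin, went from 48190, 63704 and 73688 to 4524, 2582 and 3560 counts, TP63 from 8715, 7670 and 8806 to 9, 8 and 13, while GATA3 went from 7, 1 and 0 to 1580, 1334 and 1873. The part of these marker differences in the results below was not tested. The groups differed across the whole transcriptome. Of 16756 genes tested, 46.4% passed the call used throughout, an edgeR adjusted p under 0.05 with a fold change over 2 in either direction, and 79.5% had normalized counts that did not overlap between the groups. What part of any difference below comes from VprBP depletion and what part from other differences between the 2 sets of cells cannot be told apart with these 6 samples.

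Among the 10 S1P genes, SPNS2, S1PR3 and S1PR2 rose in VprBP sh, S1PR1 and SPHK1 fell, and the other 5 were not called. Their number, 5 of 10, is close to the 46.4% of all genes tested, and the 3 that rose and 2 that fell stand against 24.5% and 22.0% of all genes in the same directions. A share this near the background is no result about the genes as a group, and what follows concerns which of them moved, and how far. The median log2 fold change of the 10 was 0.14, with S1PR1 at its fitted value or at its bound alike, beside 0.08 for all genes tested. The median size of the change, without its sign, was 1.51 beside 0.92. At any fold, 9 of the 10 had an edgeR adjusted p under 0.05, beside 76.4% of all genes, and 9 did not overlap between the groups, beside 79.5%.

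**Figure D1:**
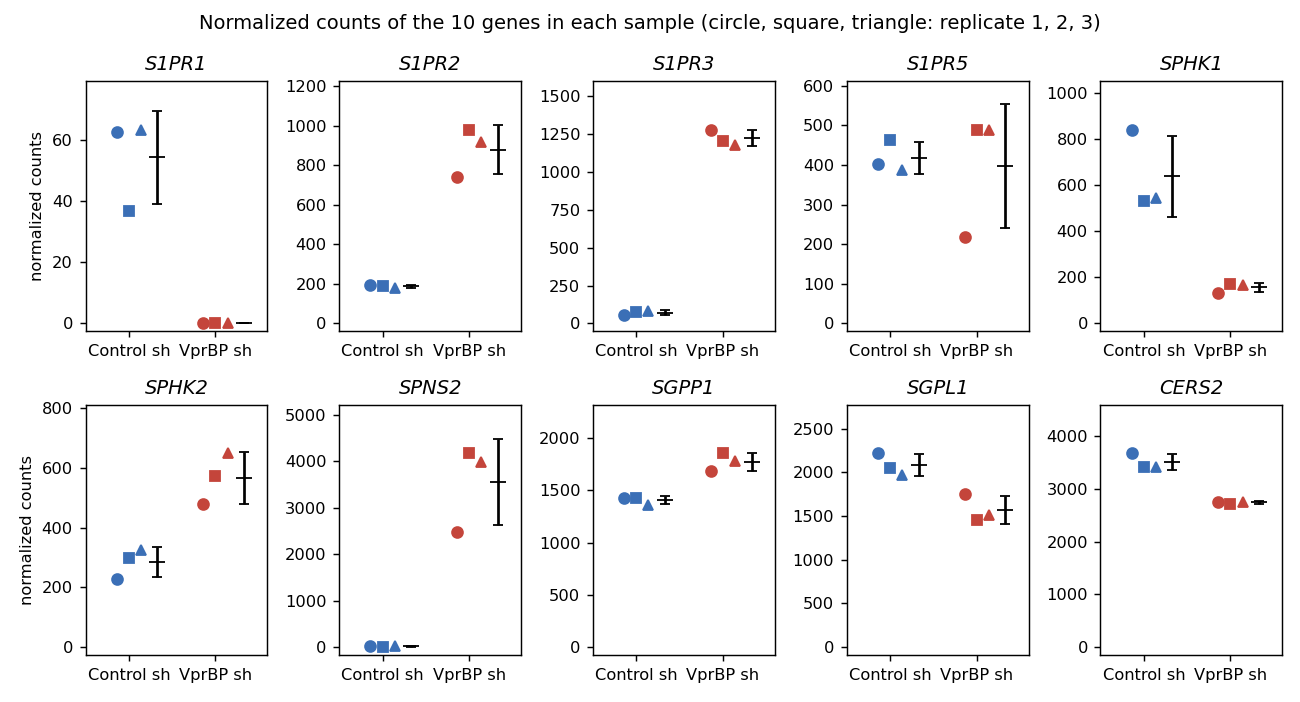
Normalized counts (counts scaled by upper quartile factors) of each gene in the 3 Control sh samples (blue) and the 3 VprBP sh samples (red), with the mean and SD in black to the right of the points; each panel has its own linear axis. The groups do not overlap for 9 genes, and S1PR5 is the exception, with VprBP sh replicate 1 at 218 below and the other two at 489 and 488 above all Control sh samples.

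SPNS2 (ENSG00000183018.9) encodes the transporter that carries S1P out of the cell. Its hg38 position, as for all genes below, is given from the table (plus strand of chromosome 17, 4498881 to 4539035). It had 24, 7 and 18 counts in Control sh against 2225, 4014 and 5188 in VprBP sh. All VprBP sh samples were thus far above all Control sh samples, and within VprBP sh replicate 1 was the lowest, also after normalization, at 2484 normalized counts against 4171 and 3977. The means were 17.5 ± 10.1 and 3544 ± 923 normalized counts (SD, n = 3 each), a log2 fold change of 7.67 (standard error 0.33, edgeR adjusted p = 3.88e-08). This rise, 203-fold in the fit, ranked 263 among the 16756 genes ordered by log2 fold change. Per kilobase of merged exon, SPNS2 stood above 10.9% of all genes tested in Control sh and above 94.0% in VprBP sh. It shares 139 exon bases with MYBBP1A on the opposite strand, whose counts went from 2314, 2763 and 3115 to 1075, 1089 and 1408.

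The receptors did not move together. S1PR3 (ENSG00000213694.6, plus strand of chromosome 9, 88990863 to 89005155), which couples to several classes of G protein, had 46, 71 and 89 counts in Control sh against 1147, 1161 and 1538 in VprBP sh. Every VprBP sh sample was far above every Control sh sample, and the 3 lay close together after normalization. The means were 71.6 ± 16.3 and 1222 ± 53 normalized counts (SD, n = 3 each), a log2 fold change of 4.08 (standard error 0.16, edgeR adjusted p = 2.02e-08), or 16.9-fold.

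S1PR1 (ENSG00000170989.10, plus strand of chromosome 1, 101236865 to 101243713), the Gi-coupled receptor of lymphocyte egress and of endothelial cells, showed the opposite pattern. It had 54, 34 and 67 counts in Control sh against 0 counts in every VprBP sh sample. The level in Control sh was low, at 54.4 ± 15.1 normalized counts (SD, n = 3), and, with each VprBP sh sample put at a floor of 3 counts, it was at least 18.6-fold lower in VprBP sh (edgeR adjusted p = 2.41e-05). In bulk RNA, fewer cells that express a gene and less of its RNA per cell cannot be told apart. Endothelial markers other than PECAM1 had lower counts in VprBP sh, as S1PR1 did. Of 5 listed, 4 were present and summed to 601 to 736 counts in Control sh against 26 to 53 in VprBP sh, with CDH5 at 340, 480 and 530 counts and then at 1, 2 and 3, while TIE1 was not among the genes analysed and PECAM1 stayed between 10 and 41 counts in all samples. Of the leukocyte markers, CD14 had 626 to 710 counts in Control sh against 120 to 544 in VprBP sh. The part of these markers in the result for S1PR1 was not tested.

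S1PR2 (ENSG00000267534.4, minus strand of chromosome 19, 10221433 to 10231331), another receptor of the family, had 166, 172 and 191 counts in Control sh against 663, 943 and 1193 in VprBP sh. The groups did not overlap, and the means were 187 ± 5.7 and 878 ± 124 normalized counts (SD, n = 3 each), a log2 fold change of 2.23 (standard error 0.13, edgeR adjusted p = 3.09e-07), or 4.70-fold. DNMT1, which encodes the maintenance DNA methyltransferase, lies on the same strand and shares 83 exon bases with S1PR2. In GENCODE 44, 2 of its 52 transcripts run across S1PR2, while its canonical transcript starts at 10194953, short of S1PR2. DNMT1 had 4294, 4869 and 5631 counts in Control sh against 20715, 22937 and 31095 in VprBP sh, a log2 fold change of 2.18 (standard error 0.08, edgeR adjusted p = 1.13e-08). There were 3.60 ± 0.24 S1PR2 counts per 100 DNMT1 counts in Control sh against 3.72 ± 0.47 in VprBP sh (SD, n = 3 each), and the difference gave p = 0.8 in a two-sided permutation test, run exactly. The ratio of these genes thus differed by less than its spread between replicates, whereas both rose more than 4-fold. How many of the reads counted for S1PR2 came from transcripts of DNMT1 was not tested.

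S1PR5 (ENSG00000180739.15, minus strand of chromosome 19, 10512742 to 10517931), known from natural killer cells and oligodendrocytes, had the most counts of the receptors in Control sh. It had 347, 427 and 408 counts there and 195, 471 and 636 in VprBP sh. The groups overlapped, since VprBP sh replicate 1 was the lowest of the 6 after normalization and replicates 2 and 3 the highest. The log2 fold change was -0.06 (95% interval -0.65 to 0.53, edgeR adjusted p = 0.838). Without VprBP sh replicate 1 the value was 0.22 and without Control sh replicate 2 it was 0.01, each with the opposite sign. S1PR4, the receptor of haematopoietic cells, had 4, 1 and 2 counts in Control sh against 1, 3 and 3 in VprBP sh, too few for the test.

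Starts of 3 receptor genes are shown, for those that rose and the 1 that was not called. The windows are the 250 bases before a RefSeq transcript start on GRCh38.p14, read 5′ to 3′ on the gene's strand, for S1PR2, which rose, for the upstream and the downstream start of S1PR3, which rose most of the receptors, and for the upstream start of S1PR5, which was not called. Capitals mark GGGCGG (the GC box) or CCAAT on either strand, with overlapping matches joined. TATAAA was searched as well and was found in none of the 4 windows.
S1PR2, chr19:10231332-10231581, minus strand: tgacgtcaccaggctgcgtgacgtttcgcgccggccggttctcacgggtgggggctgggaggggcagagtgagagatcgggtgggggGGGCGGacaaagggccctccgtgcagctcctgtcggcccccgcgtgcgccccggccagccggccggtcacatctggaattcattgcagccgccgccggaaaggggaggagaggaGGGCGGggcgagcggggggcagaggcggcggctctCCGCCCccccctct
S1PR3 upstream, chr9:88990613-88990862, plus strand: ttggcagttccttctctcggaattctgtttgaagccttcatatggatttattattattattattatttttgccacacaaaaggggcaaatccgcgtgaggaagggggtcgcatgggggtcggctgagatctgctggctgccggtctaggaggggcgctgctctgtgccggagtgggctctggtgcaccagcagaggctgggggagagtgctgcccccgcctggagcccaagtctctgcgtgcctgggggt
S1PR3 downstream, chr9:88991218-88991467, plus strand: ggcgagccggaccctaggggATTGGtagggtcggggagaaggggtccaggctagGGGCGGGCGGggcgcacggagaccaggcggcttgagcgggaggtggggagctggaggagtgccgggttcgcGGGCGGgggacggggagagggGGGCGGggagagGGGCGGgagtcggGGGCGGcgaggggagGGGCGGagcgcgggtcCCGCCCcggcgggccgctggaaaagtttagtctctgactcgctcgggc
S1PR5 upstream, chr19:10517966-10518215, minus strand: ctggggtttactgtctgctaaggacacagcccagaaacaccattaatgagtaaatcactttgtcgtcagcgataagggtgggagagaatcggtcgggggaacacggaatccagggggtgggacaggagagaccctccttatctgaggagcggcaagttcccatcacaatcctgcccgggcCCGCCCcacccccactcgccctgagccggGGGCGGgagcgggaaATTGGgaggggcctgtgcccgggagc
The GC box matched 3 times before S1PR2, 0 times before the upstream and 8 times before the downstream start of S1PR3, and 2 times before S1PR5. It occurs in 42.6% of the 35116 RefSeq windows of this length, CCAAT in 32.0% and TATAAA in 10.7%. CpG dinucleotides numbered 27, 10, 28 and 13 in the 4 windows in the order shown, beside a median of 11 over all windows. Not printed are the window of S1PR1, the receptor that fell, because 154 of its bases are annotated exon, and the downstream start of S1PR5. Of the printed windows, the downstream one of S1PR3 holds 24 annotated exon bases and the others hold 0. The S1PR1 window holds 18 CpG, 0 GC boxes and 1 CCAAT, and the downstream S1PR5 window holds 27 CpG, 2 GC boxes and 0 CCAAT. The counts are per gene, so they do not tell which start of S1PR3 was used. Windows were at hand for 7 of the 10 genes. SPNS2, SGPP1 and CERS2 did not match.

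Because length-scaled shares within a sample do not depend on scaling between samples, the receptor make-up was also expressed as the share of each of the 5 receptors in their sum. S1PR5 took 68.4% ± 3.0 in Control sh against 29.1% ± 7.3 in VprBP sh (SD, n = 3 each). S1PR2 took 23.6% ± 1.2 and 51.2% ± 2.7, and S1PR3 2.41% ± 0.58 and 19.4% ± 4.8. S1PR1 went from 4.84% ± 1.54 to 0%, and S1PR4 took 0.710% ± 0.525 and 0.267% ± 0.086. The sum itself rose from 217 ± 12 to 474 ± 86 normalized counts per kilobase, while S1PR5 was not called. All S1PR2 counts enter this sum and thus every share, and how many came from transcripts of DNMT1 was not tested. For S1PR1, S1PR2, S1PR3 and S1PR5 the samples of the groups did not overlap, and p was 0.1 in the two-sided permutation test, run exactly, which cannot go lower with 3 samples a group. The order within VprBP sh depended on the length used. S1PR3 has 13702 bases of merged exon but a longest coding sequence of 1134 bases, and when counts were divided by the coding length S1PR3 led in VprBP sh with 48.5% ± 6.7, ahead of S1PR2 with 36.9% ± 1.9. S1PR5 led in Control sh under both lengths.

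**Figure D2:**
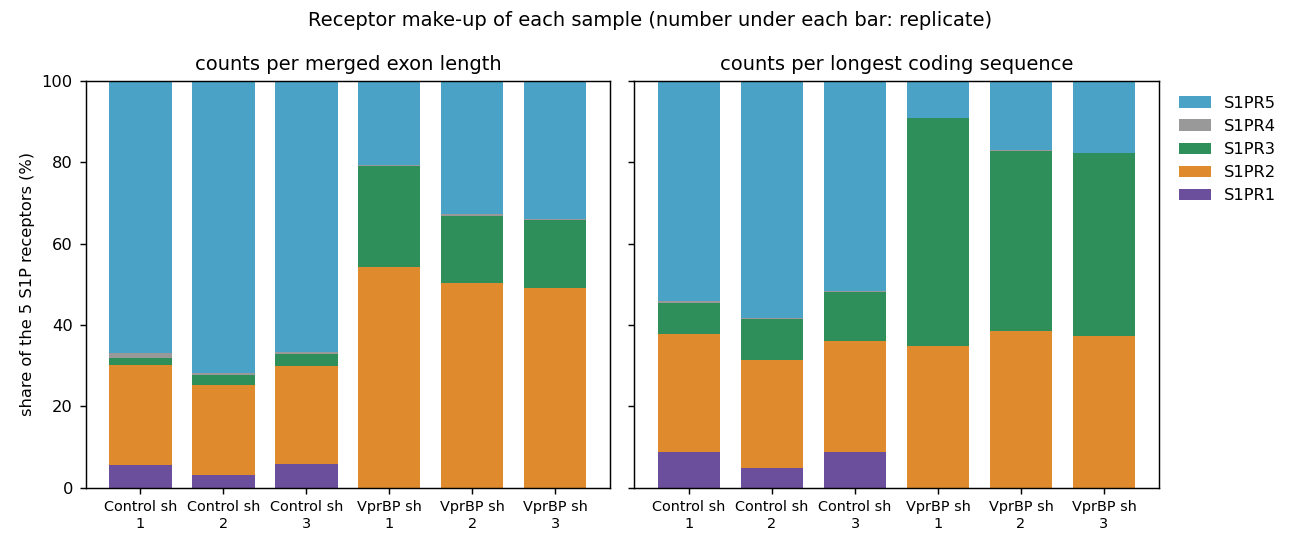
Share of each receptor (%) in the sum of the 5 S1P receptors, 1 bar per sample, with counts divided by merged exon length (left) or by the longest coding sequence (right). All S1PR2 counts are used, and the part of DNMT1 transcripts in them was not tested. The S1PR5 share is at least 51.7% in every Control sh sample and at most 33.9% in every VprBP sh sample on both scales, while the S1PR3 share of the VprBP sh samples lies at 16.5% to 24.9% by merged exon and at 44.3% to 56.1% by coding sequence.

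The kinases that make S1P moved apart. SPHK1 (ENSG00000176170.14, plus strand of chromosome 17, 76376584 to 76387860), the mainly cytosolic kinase that moves to the plasma membrane on activation, had 726, 490 and 573 counts in Control sh against 120, 166 and 215 in VprBP sh. All Control sh samples were above all VprBP sh samples, and Control sh replicate 1 was the highest. The means were 639 ± 175 and 157 ± 20 normalized counts (SD, n = 3 each), a log2 fold change of -2.02 (standard error 0.20, edgeR adjusted p = 1.09e-05), or 4.05-fold lower.

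SPHK2 (ENSG00000063176.16, plus strand of chromosome 19, 48619291 to 48630717), found largely in the nucleus and mitochondria, had 197, 276 and 343 counts in Control sh against 428, 550 and 847 in VprBP sh. The normalized means were 285 ± 50 and 566 ± 86 (SD, n = 3 each), without overlap. The log2 fold change of 0.99 (standard error 0.16, edgeR adjusted p = 0.000353) fell just short of a 2-fold change, so SPHK2 was not called. It passed in 4 of 15 alternatives, among them scaling by library size alone, where it was 1.20. SPHK2 shares 661 exon bases with DBP on the opposite strand. The sources used here do not give whether counting took strand into account.

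SPHK1 made up 74.5% ± 7.7 of the length-scaled counts of the kinases in Control sh against 27.5% ± 1.7 in VprBP sh (SD, n = 3 each; exact two-sided permutation p = 0.1, the smallest possible). On the log2 scale, the ratio of SPHK1 to SPHK2 counts was 1.88, 0.83 and 0.74 in Control sh against -1.83, -1.73 and -1.98 in VprBP sh. SPHK1 was thus the more abundant kinase in every Control sh sample and SPHK2 in every VprBP sh sample, a comparison within each library that no scaling factor touches.

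**Figure D3:**
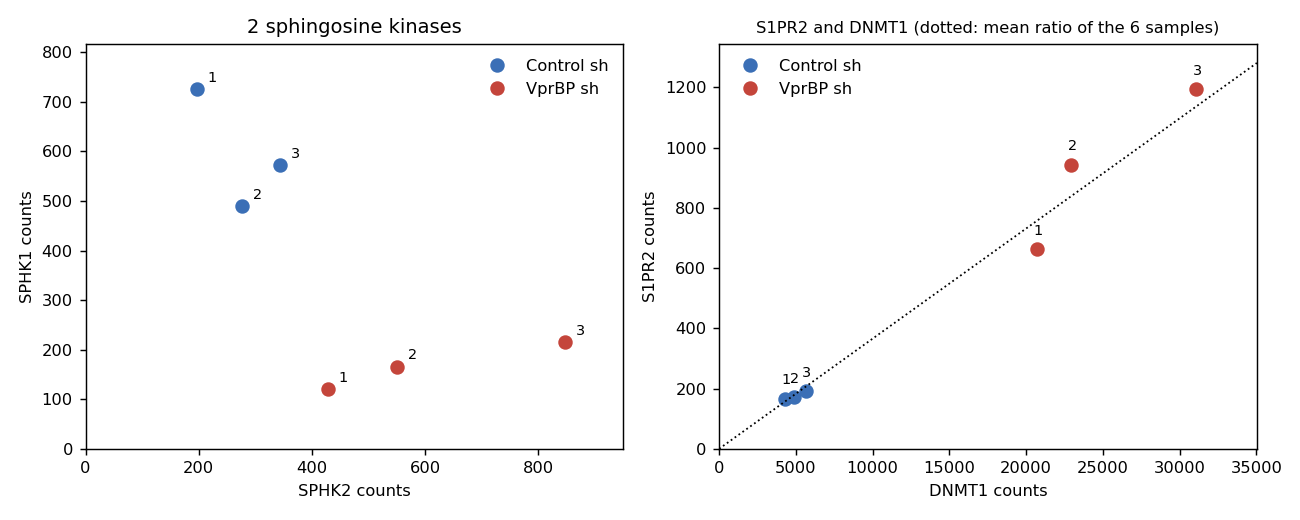
Left, SPHK1 counts against SPHK2 counts, and right, S1PR2 counts against DNMT1 counts, 1 point per sample with its replicate number, on linear axes from 0, with the mean ratio of the 6 samples as a dotted line on the right. SPHK1 exceeds SPHK2 in the 3 Control sh samples and is below it in the 3 VprBP sh samples, and S1PR2 stays at 3.20 to 4.11 counts per 100 DNMT1 counts in all 6.

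The other enzymes changed by less than 2-fold. SGPL1 (ENSG00000166224.17, plus strand of chromosome 10, 70815948 to 70881184), the lyase that cleaves S1P irreversibly, had 1916, 1887 and 2085 counts in Control sh against 1566, 1397 and 1973 in VprBP sh, a log2 fold change of -0.41 (95% interval -0.62 to -0.19, edgeR adjusted p = 0.00328). SGPP1 (ENSG00000126821.8, minus strand of chromosome 14, 63684216 to 63728065), a phosphatase of the endoplasmic reticulum that turns S1P back into sphingosine, had 1235, 1313 and 1436 counts and 1510, 1787 and 2331 counts, a log2 fold change of 0.34 (95% interval 0.16 to 0.52, edgeR adjusted p = 0.00342). CERS2 (ENSG00000143418.20, minus strand of chromosome 1, 150960583 to 150975003), which makes ceramides with very long acyl chains, had 3177, 3138 and 3618 counts and 2476, 2612 and 3604 counts, a log2 fold change of -0.35 (95% interval -0.52 to -0.19, edgeR adjusted p = 0.00163). In all 3 the normalized counts of the groups did not overlap, as in 79.5% of all genes, and each change was under 2-fold and not called. Scaled by library size alone, which moved the median of all genes from 0.08 to 0.29, SGPL1 stood at -0.19 (edgeR adjusted p = 0.0908) and CERS2 at -0.14 (edgeR adjusted p = 0.106), so that their passing the p-value threshold depended on the scaling. CERS2 shares 948 exon bases with SETDB1 on the opposite strand.

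The ratio of the length-scaled counts of both kinases to those of the lyase was 1.06 ± 0.12 in Control sh against 0.968 ± 0.211 in VprBP sh (SD, n = 3 each; exact two-sided permutation p = 0.7). No difference in this ratio was detectable with 3 samples a group, and its sign turned, to 0.0246 higher in VprBP sh, when counts were not divided by length.

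**Figure D4:**
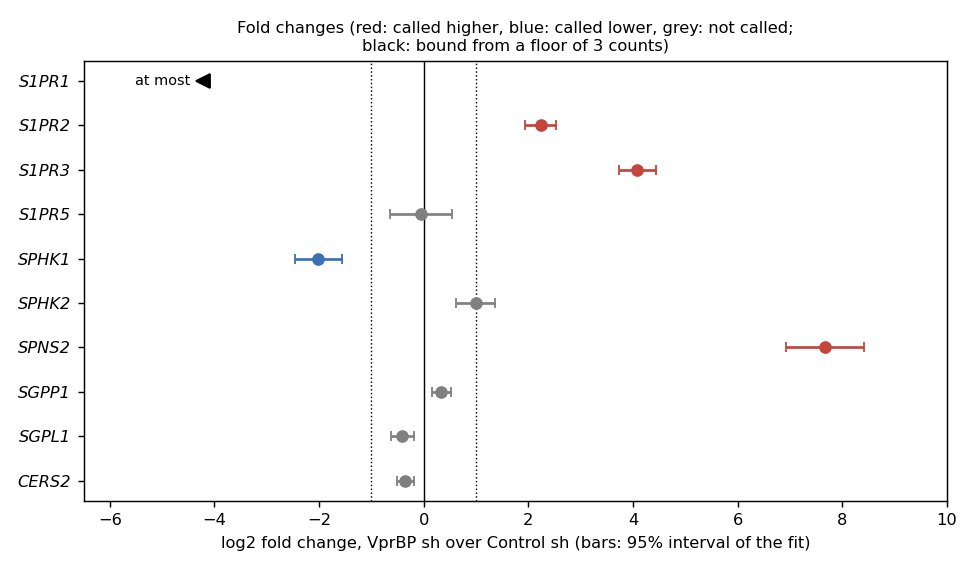
Log2 fold change of each gene, VprBP sh over Control sh, with the 95% interval of the edgeR fit as bars, dotted lines at a 2-fold change, and called genes in red (higher) or blue (lower). SPNS2, S1PR3 and S1PR2 lie right of the 2-fold line and SPHK1 left of it, and the triangle of S1PR1 marks a bound, at -4.22, from a floor of 3 counts per VprBP sh sample.

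The order of the levels differed between the groups. In normalized counts per kilobase of merged exon, CERS2 (756 ± 33), SGPP1 (422 ± 12) and SGPL1 (180 ± 11) led in Control sh (SD, n = 3 each). S1PR5 (149 ± 15) and SPHK1 (145 ± 40) followed and did not differ beyond their spread, nor did S1PR2 (51.3 ± 1.6) and SPHK2 (47.3 ± 8.4) after them. S1PR1 (10.4 ± 2.9) came next, and S1PR3 (5.23 ± 1.19) and SPNS2 (4.30 ± 2.49) closed the order without differing beyond their spread. In VprBP sh, SPNS2 came first with 871 ± 227, before CERS2 (592 ± 6) and SGPP1 (533 ± 26). S1PR2 (241 ± 34) followed, S1PR5 (142 ± 56) and SGPL1 (136 ± 14) did not differ beyond their spread, and neither did SPHK2 (94.2 ± 14.3) and S1PR3 (89.2 ± 3.8). SPHK1 (35.6 ± 4.6) was above only S1PR1, at 0. Here a difference beyond the spread is a gap larger than the sum of both SDs. The place of S1PR3 depends on the length used, since by coding length it led the receptors in VprBP sh.

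For SPNS2 and S1PR3, which changed most among the members that averaged 100 or more normalized counts in their higher group, the genes with the most similar profile were taken as those at the smallest Euclidean distance in log2(normalized counts + 1) over the 6 samples. Nearest to SPNS2 were DEGS2 (distance 0.755; 21, 8 and 13 counts in Control sh against 1884, 3058 and 4158 in VprBP sh) and CEACAM6 (distance 1.11; 22, 11 and 13 counts and 1461, 2990 and 4056 counts). Like SPNS2, both were lowest in replicate 1 among the VprBP sh samples. Nearest to S1PR3 were KIF5C (distance 0.648) and HOXC10 (distance 0.691), with log2 fold changes of 3.83 and 4.01.

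A wider list of sphingolipid and S1P pathway genes gave the surroundings of the 10. Of its 55 genes in the table, 53 were tested, of which 10 were called higher and 10 lower, so 20 of 53 beside the 46.4% of all genes. Their median log2 fold change was -0.08, beside 0.08 for all genes, and their median change without its sign was 0.66, beside 0.92.

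Among the genes that bear directly on S1P, 10 were tested and 3 were called in each direction, beside 24.5% (higher) and 22.0% (lower) of all genes. SGPP2, the second S1P phosphatase, had 94, 78 and 98 counts in Control sh against 32, 72 and 72 in VprBP sh, a log2 fold change of -0.78 (edgeR adjusted p = 0.0244), and was not called. Of the lipid phosphate phosphatases, which dephosphorylate S1P at the cell surface, PLPP1 fell from 339 ± 46 to 64.0 ± 20.3 normalized counts and PLPP3 rose from 733 ± 78 to 2153 ± 105 (SD, n = 3 each; edgeR adjusted p = 6.07e-06 and 5.2e-07). ABCG2, a drug efflux pump also linked to S1P export, had 267, 270 and 332 counts in Control sh against 0 in every VprBP sh sample, at least 105-fold lower (edgeR adjusted p = 1.55e-07). MFSD2B, the S1P exporter of red cells and platelets, had 3 to 5 counts in Control sh against 5 to 12 in VprBP sh, too few for the test. ABCC1, another transporter linked to S1P export, fell by 1.35 on the log2 scale (edgeR adjusted p = 2.44e-07). PLPP2 and APOM, the latter an S1P carrier of lipoproteins, rose by 1.82 and 3.46 on the log2 scale (edgeR adjusted p = 1.22e-06 and 1.76e-05). These last 3 were named after their values were seen. So were KDSR, CERS6, ORMDL2, ORMDL3, ASAH2, SMPD1, SMPD2, SMPD4, GNAI2 and GNA13 below.

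In ceramide synthesis, 16 genes were tested, of which 5 were called higher and 2 lower. These 7 of 16 are near the 46.4% of all genes and are no result about the group. DEGS2, a dihydroceramide desaturase and hydroxylase that makes phytoceramides, rose from 15.1 ± 8.2 to 2823 ± 623 normalized counts (SD, n = 3 each), a log2 fold change of 7.56 (edgeR adjusted p = 1.88e-08). SPTSSB, a small subunit of serine palmitoyltransferase that alters its choice of substrate, rose from 8.44 ± 5.42 to 377 ± 77 (edgeR adjusted p = 3.47e-07), and ORMDL1, an inhibitor of the same enzyme, from 279 ± 31 to 1097 ± 127 (edgeR adjusted p = 6.04e-07). ORMDL2 and ORMDL3, of the same family, were not called, at -0.41 (edgeR adjusted p = 0.0119) and -0.03 (edgeR adjusted p = 0.815) on the log2 scale. The ceramide synthases differed among themselves. CERS1, the enzyme of C18 ceramides in neurons and muscle, rose from 4, 6 and 3 counts to 115, 197 and 249 (edgeR adjusted p = 6.48e-07). However, 2579 of its 3767 merged exon bases are shared with GDF1 on the same strand. The counts of CERS1 and of GDF1 are uncertain for that reason. CERS3, the enzyme of ultralong ceramides in epidermis, had 193, 170 and 275 counts in Control sh against 0, 0 and 1 in VprBP sh, at least 76.3-fold lower (edgeR adjusted p = 9.03e-08). The remaining calls were CERS6, which makes C16 ceramides, at 1.87 and KDSR, the reductase after serine palmitoyltransferase, at -1.39 on the log2 scale.

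Among the enzymes of sphingomyelin and glycosphingolipids, 12 were tested, with 2 called higher and 2 lower, beside 24.5% and 22.0% of all genes. SMPD3, a neutral sphingomyelinase, rose from 14.8 ± 3.5 to 389 ± 44 normalized counts (SD, n = 3 each; edgeR adjusted p = 4.2e-08). It shares 1931 exon bases with PRMT7 on the opposite strand and 755 with ENSG00000279693 on the same strand. SMPD2 and SMPD4, also neutral sphingomyelinases, were not called, at -0.10 (edgeR adjusted p = 0.478) and 0.38 (edgeR adjusted p = 0.00212) on the log2 scale. SMPD1, the acid sphingomyelinase, rose by 1.06 on the log2 scale. UGCG, which adds glucose to ceramide as the first step of glycosphingolipid synthesis, fell from 6686 ± 118 to 1646 ± 177 (edgeR adjusted p = 6.28e-08). GALC, the lysosomal galactosylceramidase, had 918, 872 and 1052 counts in Control sh against 0 in every VprBP sh sample, at least 343-fold lower (edgeR adjusted p = 1.86e-08). Of 4 ceramidases tested, 1 was called, the neutral ceramidase ASAH2 at -1.70, beside the 46.4% of all genes. ASAH1, the acid ceramidase that releases sphingosine in lysosomes, had 2619, 2990 and 3526 counts and 2203, 1869 and 2516 counts, a log2 fold change of -0.61 (edgeR adjusted p = 0.000566), and was not called. Of the 11 G proteins and effectors tested, 2 were called, both lower, GNAI2 (log2 fold change -1.25) and GNA13, beside the 22.0% of all genes called lower, and the median log2 fold change of the 11 was -0.09.

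**Figure D5:**
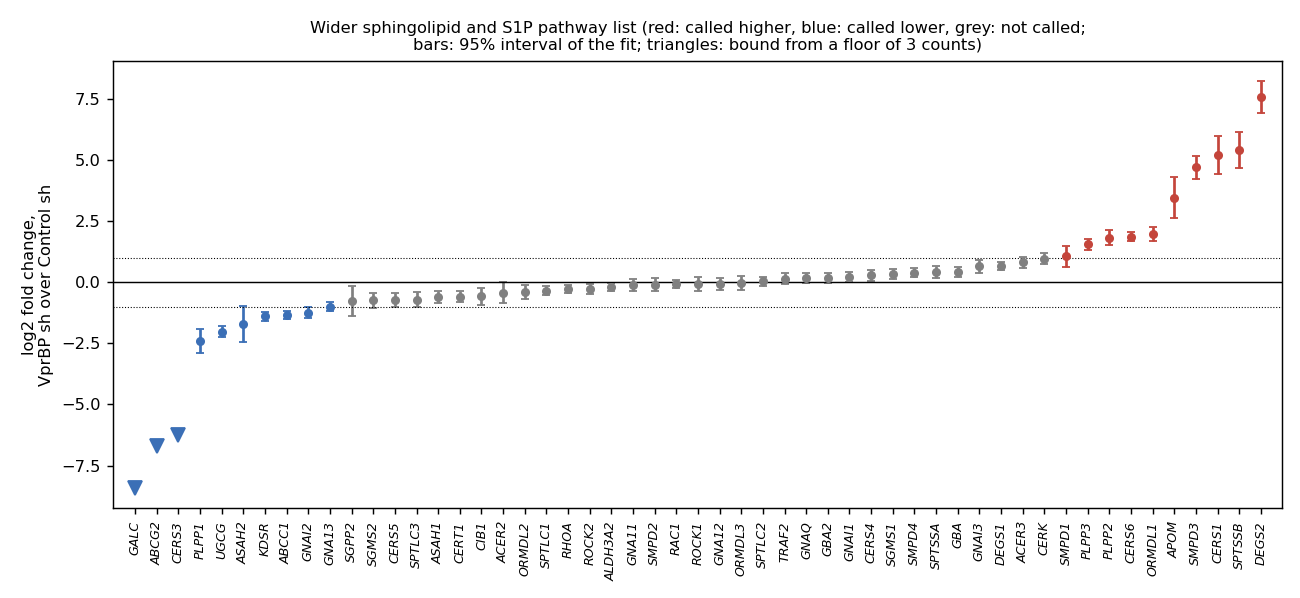
Log2 fold change, VprBP sh over Control sh, of the 53 tested genes of the wider pathway list in order of size, with 95% intervals of the edgeR fit as bars, dotted lines at a 2-fold change and triangles for the 3 genes at or under 3 counts in every VprBP sh sample, drawn at their bound. The 33 genes not called lie in the middle, DEGS2 is at the right end with 7.56, and GALC is at the left end with a bound of -8.42.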

How the data were processed

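The authors aligned single-end 50-base reads to hg38 with STAR 2.6.1d, used Partek Flow to quantify genes, and deposited the estimated counts, 59.8% of which are whole numbers, with no scaling and no pooling. The labels name a SMARTER kit and the methods a stranded KAPA kit. Genes in the table sum to 10 or more across samples. Estimated counts were rounded and tested with edgeR 4.0.16 in R 4.3.3 (quasi-likelihood test, upper quartile factors at quantile 0.75, its low count filter at 10, no replicate block, Benjamini-Hochberg adjustment over 16756 genes). This stands in for the Gene Specific Algorithm, which was not used here. With that algorithm and the same thresholds, the paper reports far fewer changed genes than were called here. The reason for this difference was not tested. A call needed an adjusted p under 0.05 and a fold over 2. The floor of 3 counts, 2.30 to 3.48 normalized counts, covers counting error only. Lengths and overlaps came from GENCODE 44 (the methods name release 29), and promoter windows from RefSeq. Groups came from sample titles. Levels per kilobase and shares used merged exon length.

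The 10 genes and all lists were chosen with earlier results of these data known. The text names the 10, DCAF1, S1PR4, SGPP2, PLPP3, ASAH1, MFSD2B, the 5 largest called increases and decreases of the wider list (mean of 100 or more in the higher group, groups apart), the 2 genes nearest to each of 2 members, and markers of melanocytes, urothelium, endothelium and leukocytes. DNMT1 and other overlapping genes were named after their values were seen. The alternatives were TMM, library size, DESeq2 1.42.0, limma-voom (limma 3.58.1), other filters, a replicate block, summed replicates 2 and 3, testing against 2-fold, dropping each sample in turn, and other lengths for the shares. The tests were checked on simulated data. S1PR2 per DNMT1 and the SPHK1 to SPHK2 ratio were chosen after seeing the data.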

Additional observations from a re-analysis of the deposited data

How the results depend on the processing

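SPNS2, S1PR2, S1PR3, SPHK1 and S1PR1 were called in the same direction in every alternative that tested them, with log2 fold changes of 7.32 to 8.12, 2.11 to 2.45, 3.91 to 4.29, -2.18 to -1.77 and -9.41 to -6.80. Requiring 10 or more counts in all 6 samples removed SPNS2 and S1PR1, and with them it left 3 of the 10 genes called, 1 of them lower, 11 genes of the wider list (6 higher and 5 lower) and 4690 of all genes (2694 higher and 1996 lower), since it drops genes that are off in a group. Leaving out 1 sample gave 5 to 6 called among the 10, 3 to 4 of them higher, 18 to 21 in the wider list and 7949 to 8142 among all genes. The sixth gene was SPHK2, at 1.03, 1.10 and 1.10 without Control sh replicate 2, Control sh replicate 3 and VprBP sh replicate 1. SGPP2 was called, at -1.05, without VprBP sh replicate 2. S1PR5 turned sign with library size alone (0.15), without Control sh replicate 2 (0.01) and without VprBP sh replicate 1 (0.22), and was called in none of its alternatives, with a range of -0.24 to 0.22 over the samples left out. The difference in S1PR2 counts per 100 DNMT1 counts (VprBP sh minus Control sh), an alternative chosen after seeing the data, ran from -0.0782 without VprBP sh replicate 2 to 0.377 without VprBP sh replicate 1. DCAF1 ranged from -0.82 to -0.46 when a sample was left out, and it passed the p-value threshold neither with library size alone (-0.37, edgeR adjusted p = 0.0851) nor with replicates 2 and 3 summed (-0.46, edgeR adjusted p = 0.0839).

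For the receptor shares, the differences in percentage points (VprBP sh minus Control sh) moved with the length. With counts undivided and with coding length they were -7.48 and -7.48 for S1PR1 (from -4.84), 9.50 and 9.24 for S1PR2 (from 27.6) and 39.5 and 38.6 for S1PR3 (from 17.0). The kinase to lyase ratio turned sign with undivided counts (0.0246) and without VprBP sh replicate 1 (0.0275), and ranged from -0.165 to 0.0275 over the samples left out. The SPHK1 share difference stayed between -49.6 and -42.6 points when samples were left out.

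The groups share replicate numbers, but same-numbered samples did not deviate together, with correlations of -0.173, -0.0539 and -0.121 across 12133 genes. With the replicate number as a block, edgeR called 5 of the 10 genes, with log2 fold changes of 7.65 for SPNS2, 4.09 for S1PR3, 2.23 for S1PR2, -1.99 for SPHK1 and -8.79 (fitted, no bound) for S1PR1, and 7686 of all genes. SPHK2 stayed just under 2-fold, so the block changed no call among the 10. Counts limit the low genes most: S1PR4 and MFSD2B were too low to test, and S1PR1 rests on 34 to 67 counts in Control sh.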
